A study of Mus musculus with 24 samples.

Results

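The 10 genes described here make, package, recover and break down acetylcholine or form neuronal nicotinic receptors, and they were taken by name from the 22889 entries of an expression table; all 10 were in the table. The table holds RPKM (reads per kilobase of gene model, scaled to the mapped reads of the library, a level corrected for length and depth) from poly(A) RNA of 24 bulk samples sorted from cultures of mouse embryonic stem cells (mESCs). The oculomotor (OMN) cultures came from a line with a GFP reporter for Islet1 and extra Phox2a under the nestin enhancer, which limits the transgene to progenitors, and were patterned for 5 days with 250 nM of the Smoothened agonist SAG and 100 ng/ml Fgf8. The spinal (SC) cultures came from another line, with a GFP reporter for Hb9 and no Phox2a transgene, and were patterned for 5 days with 500 nM SAG and 100 nM retinoic acid. GFP+ and GFP- cells of each culture were collected by fluorescence-activated sorting, which gave 4 groups of 6 samples. Line, reporter, transgene and morphogens all differed between the cultures and cannot be told apart.

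Motor neurons signal to muscle with acetylcholine. Choline acetyltransferase (Chat) makes it, the vesicular transporter Slc18a3 loads it into vesicles, acetylcholinesterase (Ache) splits it in the cleft, and Slc5a7 takes the released choline back into the terminal. Nicotinic receptors are ion channels of several subunits: neuronal α subunits combine with β subunits, classically α4 with β2 and α3 with β4, with α5 as an accessory subunit, whereas α7 can form channels by itself.

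Several members lie together in the genome (GRCm38, GENCODE M21). Slc18a3 (chr14:32462438-32464850, minus strand) is a single exon inside an intron of Chat (chr14:32408203-32465989, minus strand), and 0 exonic bases are shared. Chrna5 (chr9:54980880-55007779, plus strand), Chrna3 (chr9:55010111-55026562, minus strand) and Chrnb4 (chr9:55028154-55048779, minus strand) span 67900 bases, with gaps of 2331 and 1591 bases. The remaining members stand alone: Chrna4 at chr2:181018380-181043546, Chrnb2 at chr3:89746195-89764632, Ache at chr5:137287519-137294466, Chrna7 at chr7:63098692-63212569 and Slc5a7 at chr17:54273590-54299034. Bases from the 250 before the RefSeq start of 4 members of these 2 clusters are printed because the levels below are read within the clusters. The strand is that of the gene and exonic bases are left out, so the Chat run ends 80 bases before its start. For Chrnb4, which is not printed, 15 bases remained. Capitals mark E-boxes (CANNTG, the core letters bound by basic helix-loop-helix factors), and the windows are chr14:32465990-32466159, chr14:32464851-32465041, chr9:55026563-55026812 and chr9:54980630-54980879 in this order.
Chat: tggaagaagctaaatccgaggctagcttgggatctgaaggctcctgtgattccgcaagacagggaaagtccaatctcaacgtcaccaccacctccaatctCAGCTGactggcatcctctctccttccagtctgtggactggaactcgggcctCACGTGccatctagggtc
Slc18a3: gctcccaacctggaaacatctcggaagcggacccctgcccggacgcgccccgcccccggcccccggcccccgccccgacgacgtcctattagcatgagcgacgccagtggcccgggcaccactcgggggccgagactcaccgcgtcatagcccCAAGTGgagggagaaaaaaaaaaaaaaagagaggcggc
Chrna3: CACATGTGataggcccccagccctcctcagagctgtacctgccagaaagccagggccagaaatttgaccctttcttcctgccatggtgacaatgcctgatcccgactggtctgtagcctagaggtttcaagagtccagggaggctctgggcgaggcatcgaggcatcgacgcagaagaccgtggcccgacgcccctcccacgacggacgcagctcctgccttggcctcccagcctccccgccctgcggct
Chrna5: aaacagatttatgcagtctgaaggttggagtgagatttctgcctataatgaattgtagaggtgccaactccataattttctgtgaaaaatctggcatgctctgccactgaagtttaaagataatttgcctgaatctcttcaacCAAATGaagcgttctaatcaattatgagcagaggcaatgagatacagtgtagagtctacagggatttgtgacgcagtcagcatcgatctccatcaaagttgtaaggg
Within 250 bases before the start, on either strand, CANNTG was present in 9 of the 10 members, against 60.9% of 14855 promoters of the same length. The homeodomain core TAAT was present in 2 members, Slc18a3 with 1 match and Chrna5 with 5, against 45.6% of promoters. The GC box GGGCGG was present in 6 members, against 48.9%. Chrna5 has 2 RefSeq starts, and the first is shown. A match before either start counted for Chrna5, whereas the percentages take 1 promoter per gene. Its GC boxes lie before the second start only. These matches describe letters only.

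The estimated depth ran from 752529 to 7675428 mapped reads. Replicates 5 and 6 were deeper (4822576 to 7675428) than replicates 1 to 4 (752529 to 4642207). Isl1, the LIM homeodomain gene behind the oculomotor reporter, read 141 to 369 RPKM in oculomotor GFP+ and 0.696 to 1.87 in GFP- samples. Mnx1, which encodes Hb9, read 43.1 to 149 in spinal GFP+ samples and at most 6.91 in oculomotor GFP+ samples. Phox2a read 5.83 to 53.4 in oculomotor GFP+ samples and at most 8.59 in spinal GFP+ samples. The spinal GFP+ sample 4 stood apart: its summed level of 13 pan-neuronal genes was 127.5 RPKM against 868 to 4132 in the other 5, its Isl1 was 7.63, and its log2 profile correlated with the GFP- sample 4 at r = 0.956, against 0.785 to 0.902 for the other 11 pairs of fractions. The spinal GFP- sample 4 went against its label too, with Mnx1 at 69.4 RPKM against at most 4.72 in the other 5. In the spinal GFP- sample 2, 3 gene models held 68.8% of the summed RPKM. Member calls that involve spinal samples are therefore also given without spinal GFP+ sample 4 or both spinal samples 4. The same holds for member differences between GFP+ fractions, and for list results where calls change without the GFP+ sample 4. These are bulk samples, so fewer expressing cells and less RNA per cell cannot be told apart.

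**Figure D1:**
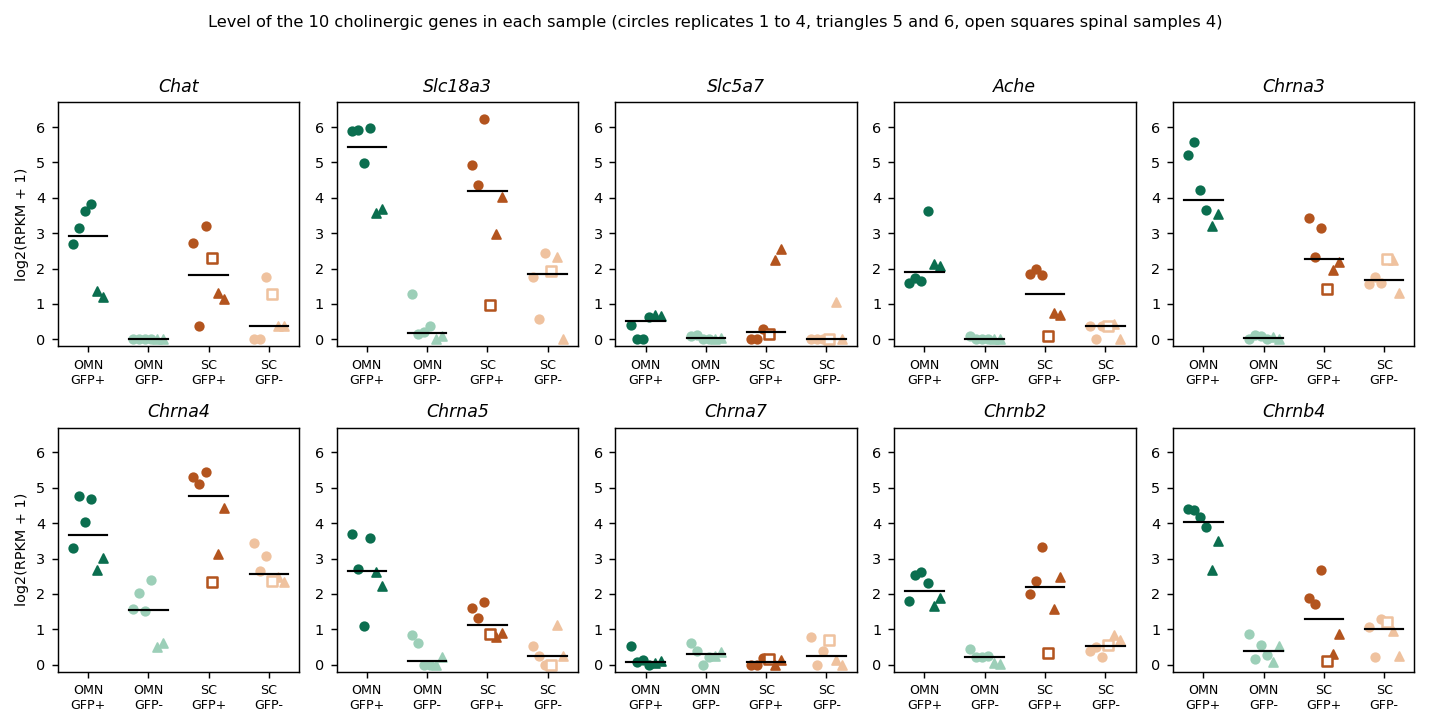
Level of each member as log2(RPKM + 1) in every sample of the 4 groups, with circles for replicates 1 to 4, triangles for replicates 5 and 6, open squares for the spinal samples 4 and a bar at the group median. Most members sit highest in a GFP+ group, Chrna7 stays near 0 in all groups, and Chrna3 and Chrnb4 are high mainly in oculomotor GFP+ samples.

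Chat, the synthetic enzyme, was read in every oculomotor GFP+ sample and in no GFP- sample of these cultures. Its level was 1.29 to 13.1 RPKM (median 6.72) in oculomotor GFP+ samples and 0 in all 6 oculomotor GFP- samples, where 3 reads would have given 0.172 to 0.791 RPKM. Pooled over samples, 340 reads stood against 0, which is at least 99.2-fold higher per mapped read when the GFP- group is set at a floor of 3 reads. Reads were derived from the RPKM values with a gene length of 2810 bases, which matched no annotated length of Chat. In spinal GFP+ samples Chat ran from 0.306 to 8.22 RPKM (median 2.70), and in spinal GFP- samples from 0 to 2.36 (median 0.302). The lowest spinal GFP+ value, in sample 2, rests on 2 reads, and the 2 spinal groups overlap. In both GFP+ groups the deep replicates 5 and 6 were among the lower ones, at 1.29 and 1.56 RPKM in oculomotor and 1.21 and 1.48 in spinal samples.

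Slc18a3, the vesicular acetylcholine transporter, was the highest member of oculomotor GFP+ samples. It ran from 10.8 to 62.4 RPKM (median 44.5) there and from 0 to 1.43 (median 0.121) in oculomotor GFP- samples, so these groups do not overlap. In spinal GFP+ samples it ran from 0.955 to 74.5 RPKM (median 17.5), and in spinal GFP- samples from 0 to 4.41 (median 2.61). With all samples the spinal groups overlap. The low end of the spinal GFP+ range is sample 4, and without it the lowest value is 6.82, above all 6 spinal GFP- samples. The share of all genes that separate in this way was not counted. Slc18a3 exceeded Chat by 2.73 to 10.6 times (median 7.19) in the oculomotor GFP+ samples on the per-length scale. In spinal GFP+ samples the ratio was 4.62 to 12.7 in replicates 1, 3, 5 and 6, 64.1 in sample 2 and 0.244 in sample 4.

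Slc5a7, the high-affinity choline transporter, was low in most samples. It reached 0.605 RPKM at most in oculomotor GFP+ samples (median 0.440, lowest 0) and 0.0906 in oculomotor GFP- samples. Spinal GFP+ samples had a median of 0.161 and a lowest value of 0, yet replicates 5 and 6 read 3.71 and 4.81 RPKM, the only values above 1.07 in the series. Spinal GFP- samples were at 0 in 5 of 6, with 1.07 in sample 5, whose pan-neuronal sum of 914 was also the highest of that group. The spinal excess was thus present in replicates 5 and 6 alone, and the comparison of those 4 GFP+ samples gave a log2 difference of -1.71 with an adjusted p of 0.160.

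Ache, the acetylcholine-splitting enzyme, read 2.00 to 11.3 RPKM (median 2.79) in oculomotor GFP+ samples, with the highest value in sample 4. In oculomotor GFP- samples a single read was counted in all 6 together, against 385 in GFP+ samples, a ratio of 337 per mapped read with an exact 95% interval of 60.2 to 13350 (counting error only). Spinal GFP+ samples ran from 0.0554 to 2.98 RPKM (median 1.58) and spinal GFP- samples from 0 to 0.337 (median 0.292). The spinal groups overlap with all samples. Without sample 4 the lowest spinal GFP+ value is 0.620, above every spinal GFP- sample, and the share of all genes that separate in this way was not counted.

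Chrna3, the α3 subunit gene, was high in oculomotor GFP+ and nearly absent from oculomotor GFP- samples. It read 8.21 to 46.5 RPKM (median 14.5) in oculomotor GFP+ samples and 0 to 0.0891 in oculomotor GFP- samples, where 4 reads were counted in all. Spinal GFP+ samples ran from 1.70 to 9.83 RPKM (median 3.78). Spinal GFP- samples ran from 1.50 to 3.80 (median 2.19), which overlaps spinal GFP+ samples and lies wholly above oculomotor GFP- samples.

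Chrnb4, its usual β partner, followed a similar order at a lower spinal level. It ran from 5.42 to 19.96 RPKM (median 15.5) in oculomotor GFP+ samples, from 0.0557 to 0.833 in oculomotor GFP- samples, from 0.0688 to 5.43 (median 1.56) in spinal GFP+ samples and from 0.159 to 1.43 (median 1.01) in spinal GFP- samples. The lowest oculomotor GFP+ sample, 5, and the highest spinal GFP+ sample, 3, are almost level. The accessory gene Chrna5 ran from 1.13 to 11.9 RPKM (median 5.29) in oculomotor GFP+ samples, from 0 to 0.771 in oculomotor GFP- samples, from 0.708 to 2.40 (median 1.19) in spinal GFP+ samples and from 0 to 1.18 in spinal GFP- samples. All 3 genes of the chromosome 9 cluster thus had their highest group median in oculomotor GFP+ samples, as did Chat, Slc18a3, Slc5a7 and Ache.

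Chrna4 (α4) was the member with the highest median in spinal GFP+ samples, at 27.1 RPKM (4.08 to 42.5), above its oculomotor GFP+ median of 12.1 (5.42 to 26.2). The 2 ranges overlap. It was also the highest member in both GFP- groups by median, at 1.93 (0.413 to 4.28) in oculomotor and 4.90 (4.01 to 9.77) RPKM in spinal GFP- samples. Chrnb2 (β2) read 2.15 to 5.13 RPKM (median 3.32) in oculomotor GFP+ and 0.244 to 9.10 (median 3.59) in spinal GFP+ samples. In GFP- samples it reached at most 0.370 in oculomotor and 0.795 in spinal cultures, and the lowest spinal GFP+ value, in sample 4, falls among these. Of the 8380 exonic bases of Chrnb2, 16.3% overlap Adar on the other strand, and with libraries whose strand is not stated those reads cannot be assigned to either gene. Adar itself averaged 0.532 to 0.965 RPKM over the 4 groups.

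Chrna7 (α7) was at or near 0 throughout. Its highest value was 0.730 RPKM, in spinal GFP- sample 1, and at most 12 reads were counted in any sample. Group medians were 0.0623 in oculomotor GFP+, 0.235 in oculomotor GFP-, 0.0434 in spinal GFP+ and 0.195 RPKM in spinal GFP- samples, and all 4 groups overlap. Pooled over samples, 14 reads in oculomotor GFP+ stood against 26 in GFP- samples, a ratio of 0.472 per mapped read (exact 95% interval 0.228 to 0.937), and 6 against 28 in spinal samples, a ratio of 0.204 (0.0692 to 0.503). These intervals cover counting error only. In replicates 5 and 6, oculomotor GFP+ samples (0.0348 and 0.0643 RPKM) lay below GFP- samples (0.184 and 0.286), and in replicates 1 to 4 they overlapped. Those values rest on 1 and 2 reads against 4 and 8, and the share of all genes separated in this way was not counted. Spinal fractions overlapped in both sets of replicates. Ordered by group median, neighbouring groups overlapped for every member, except that spinal GFP- lay above oculomotor GFP- samples for Chrna3 and oculomotor GFP+ above spinal GFP- samples for Chrnb2.

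The first comparison asks which members mark the sorted GFP+ cells of the oculomotor cultures. Differences are of mean log2(RPKM + 1), a scale that understates changes of low genes, tested across all genes with limma and Benjamini-Hochberg adjustment at 0.05. Of the 10 members, 8 were higher in GFP+ than in GFP- samples, against 3.81% of all 22179 genes tested in that direction and 6.15% in either. The same 8 had groups without overlap, which held for 4.04% of all genes in that direction, and their log2 differences ran from 1.93 to 4.65. Slc18a3 rose by 4.65 ± 0.66 (SE, adjusted p = 7.1e-05), Chrna3 by 4.19 ± 0.38 (adjusted p = 1.5e-07), Chrnb4 by 3.43 ± 0.40 (adjusted p = 5.8e-06) and Chat by 2.64 ± 0.49 (adjusted p = 0.0013). Chrna5 rose by 2.38, Chrna4 by 2.31, Ache by 2.12 and Chrnb2 by 1.93, with adjusted p between 0.00013 and 0.0053. All 8 were higher in 6 of 6 pairs of the same number and stayed past the threshold in each of the 24 fits that left out 1 sample. Slc5a7 (0.36, 95% interval -0.37 to 1.08, adjusted p = 0.730) and Chrna7 (-0.16, interval -0.43 to 0.10, adjusted p = 0.606) did not pass. The median over the members was 2.34, beside 0 over all genes tested.

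Neuronal content moved with this step. The summed RPKM of the 13 pan-neuronal genes was 2080 to 4596 in oculomotor GFP+ and 38.6 to 113 in GFP- samples, and 12 of the 13 passed the test as higher. The 7 pluripotency genes summed to 1.01 to 259 in oculomotor GFP+ and 689 to 9879 in GFP- samples, with 6 of 7 lower (7 without spinal GFP+ sample 4 in the fit). Of the 13 progenitor and cycling genes, 4 were called as lower (Ccnb1, Hes1, Sox2 and Top2a), and of the 8 glial genes Slc1a3 was called as lower and Mbp as higher. The part of these shifts in the members' differences was not tested.

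**Figure D2:**
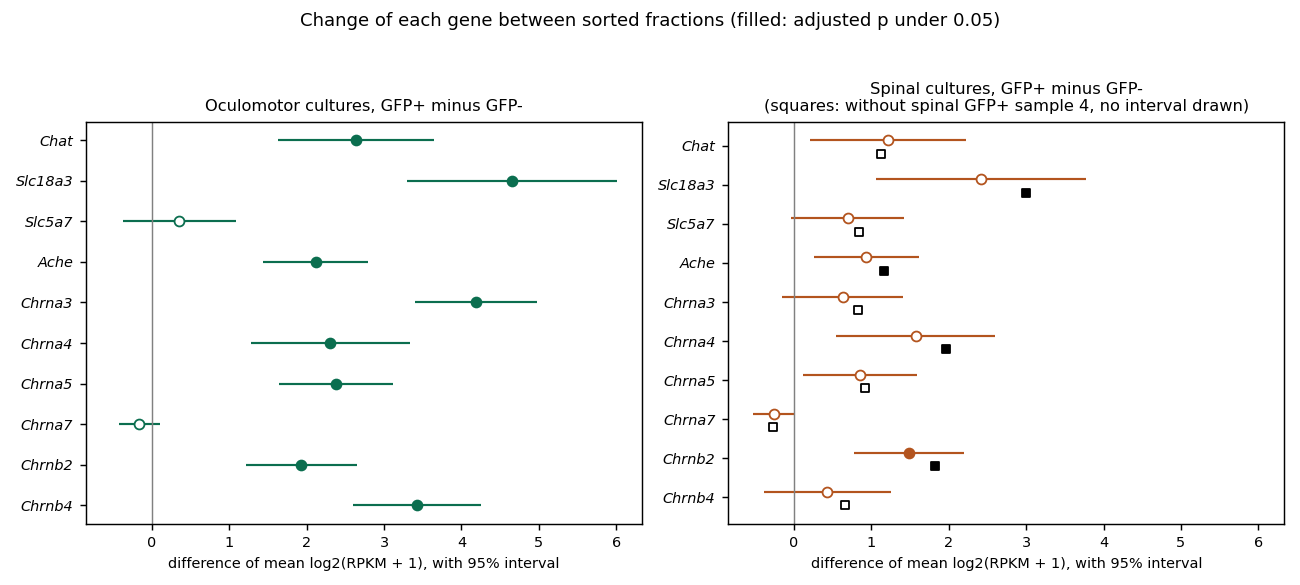
Difference between GFP+ and GFP- samples of each member (mean log2(RPKM + 1), with 95% interval) in oculomotor (left) and spinal cultures (right), with filled symbols for an adjusted p under 0.05 and squares for the spinal difference without GFP+ sample 4. In the oculomotor panel 8 of 10 genes pass, and in the spinal panel 1 passes with all samples and 4 without GFP+ sample 4.

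In spinal cultures the same step was called for 1 member, Chrnb2, at 1.49 ± 0.35 (adjusted p = 0.0284), against 1.23% of all genes in either direction and 0.397% as higher. The call was lost in 6 of the 24 fits without 1 sample, those without spinal GFP+ sample 1 (adjusted p = 0.0546), 2 (0.0567), 3 (0.0781) or 6 (0.0698) or spinal GFP- sample 1 (0.0673) or 3 (0.0620). Without spinal GFP+ sample 4 it was 1.83 (adjusted p = 0.00058). With samples centred on their median, Chrnb2 no longer passed (1.37, adjusted p = 0.0623) and Slc18a3 did (2.30, adjusted p = 0.0383).

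Leaving out that sample raised the count to 4 of 10, against 1.51% of all genes as higher. The additions were Slc18a3 (3.00, adjusted p = 0.0036, from 2.41 and 0.0716 with all samples), Chrna4 (1.96, adjusted p = 0.0166, from 1.57 and 0.151) and Ache (1.16, adjusted p = 0.0485, from 0.94 and 0.230). Without either spinal sample 4, Ache no longer passed (adjusted p = 0.0626) and the other 3 did. With the pairs of fractions as a replicate block, 3 members passed: Slc18a3 (adjusted p = 0.0457), Chrna4 (0.0172) and Chrnb2 (0.0370). Chat (1.21 ± 0.49, adjusted p = 0.339) was higher in 6 of 6 pairs and did not pass in any of these fits.

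Chrna3 (0.63, interval -0.16 to 1.41, adjusted p = 0.615) and Chrnb4 (0.43, interval -0.39 to 1.25, adjusted p = 0.798) were not called in spinal cultures. Chrna5 (0.85, adjusted p = 0.368), Slc5a7 (0.69, 0.514) and Chrna7 (-0.26, 0.505) were not called either. The median over the members was 0.89, beside 0 over all genes. Pan-neuronal genes again moved with the step: 7 of 13 passed as higher, 12 of 13 without sample 4, and their sum was 127.5 to 4132 in GFP+ and 118 to 914 in GFP- samples. The pluripotency sum was 15.6 to 12400 in spinal GFP+ samples, highest in sample 5, and 95.3 to 5802 in GFP- samples, highest in sample 4. The part of these shifts was not tested.

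The difference of the 2 steps was tested directly as the interaction of culture and fraction. It was called for 2 members, against 0.32% of all genes. Chrna3 rose more in oculomotor cultures by 3.56 ± 0.54 (adjusted p = 0.0014, 3.36 and 0.0028 without spinal GFP+ sample 4), and Chrnb4 by 3.00 ± 0.56 (adjusted p = 0.0150, 2.77 and 0.0236 without that sample). Both passed in each of the 24 fits that left out 1 sample, with highest adjusted p of 0.0042 and 0.0352. Among the other 8, the estimates ran from -0.34 for Slc5a7 to 2.24 for Slc18a3 (95% interval 0.33 to 4.16, adjusted p = 0.554). In the same test 2 of the 13 pan-neuronal genes were called as higher, with a list median of 2.80, and the part of neuronal content in the 2 called members was not tested.

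**Figure D3:**
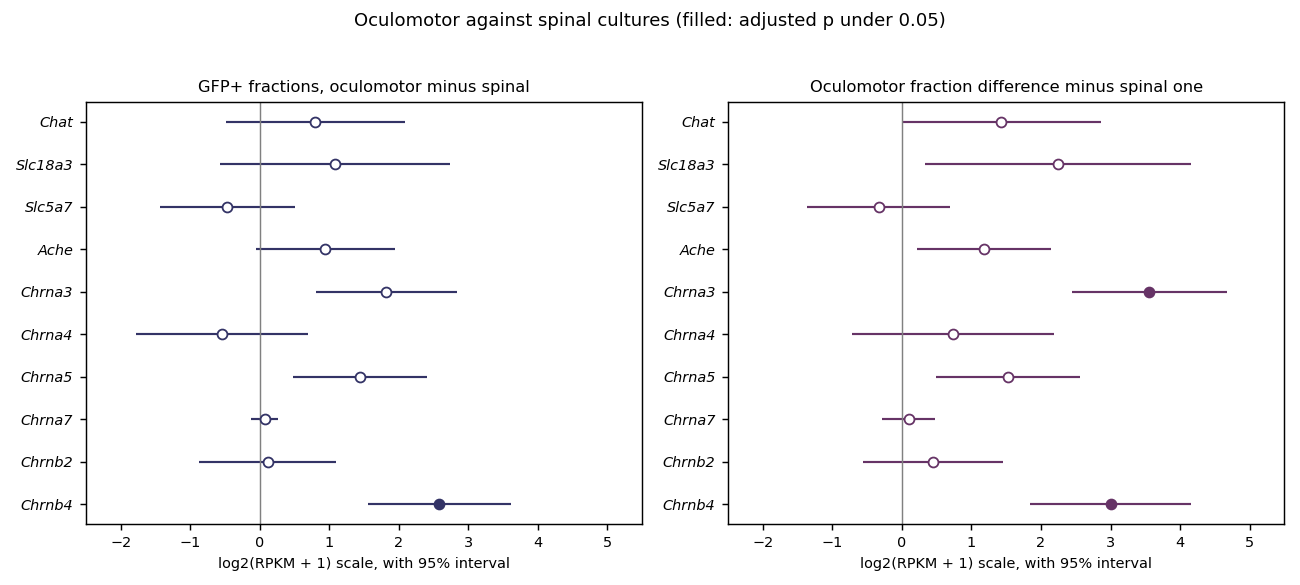
Oculomotor minus spinal difference of each member in GFP+ samples (left) and the oculomotor fraction difference minus the spinal one (right), on the log2(RPKM + 1) scale with 95% intervals; filled symbols have an adjusted p under 0.05. Chrnb4 is filled in both panels at 2.58 and 3.00, and Chrna3 in the right panel at 3.56.

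Between the GFP+ fractions themselves, the comparison of sorted oculomotor and spinal motor neurons, 1 member was called, against 0.603% of all 19240 genes tested. Chrnb4 was higher in oculomotor samples by 2.58 ± 0.48 (interval 1.55 to 3.61, adjusted p = 0.0265). The fit used the 12 GFP+ samples, and the call was lost in 7 of the 12 fits that left out 1 sample. These were the fits without oculomotor sample 1 (adjusted p = 0.0779), 2 (0.0850), 3 (0.0729), 4 (0.0572) or 6 (0.0573) and without spinal sample 5 (0.0609) or 6 (0.0620), while the difference stayed between 2.35 and 2.87. Without spinal sample 4 Chrnb4 stood at 2.35 (adjusted p = 0.0453).

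Chrna3 was higher by 1.82 ± 0.47 (interval 0.81 to 2.83) and Chrna5 by 1.44 ± 0.45 (interval 0.48 to 2.40), with adjusted p of 0.132 and 0.229. Both missed the threshold in this fit. Without spinal sample 4 they stood at 1.62 (adjusted p = 0.196) and 1.37 (adjusted p = 0.306). In the fit of all 24 samples, which shares 1 estimate of the spread, they passed at 0.0107 and 0.0343, with Chrnb4 at 0.00045. Within replicates 1 to 4, oculomotor samples lay above all spinal samples for Chrna3 (11.5 to 46.5 against 1.70 to 9.83 RPKM) and Chrnb4 (13.9 to 19.96 against 0.0688 to 5.43), that is 2 of 10 members against 2.11% of all genes. Within replicates 5 and 6 this held for Chrna3 (8.21 and 10.6 against 2.86 and 3.56), Chrnb4 (5.42 and 10.3 against 0.223 and 0.805), Chrna5 (3.71 and 5.11 against 0.708 and 0.875) and Ache (3.23 and 3.39 against 0.620 and 0.658), or 4 of 10 against 16.9% of all genes. In the same replicates Chrna4 (5.42 and 7.06 against 7.68 and 20.4) and Slc5a7 (0.587 and 0.605 against 3.71 and 4.81) lay wholly below spinal samples. The share of all genes in that direction was not counted.

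Chat (0.80, interval -0.49 to 2.08), Slc18a3 (1.09, interval -0.57 to 2.74) and Ache (0.94, interval -0.06 to 1.94) did not pass between GFP+ fractions, with adjusted p from 0.528 to 0.681. Slc5a7 (-0.47), Chrna4 (-0.55, interval -1.79 to 0.69), Chrnb2 (0.11, interval -0.87 to 1.10) and Chrna7 (0.07) did not pass either. Every one of these intervals includes 0, and those of Chat, Slc18a3, Ache and Chrnb2 reach past 1 on the oculomotor side. Slc5a7 and Chrna4 reach past -1 on the spinal side. The median over the members was 0.87, beside -0.04 over all genes. Without spinal sample 4 it was 0.61, beside -0.01 over all genes, and of the members only Chrnb4 passed. Slc18a3 then stood at 0.50, Chat at 0.89, Ache at 0.72 and Chrnb2 at -0.23. Slc5a7 stood at -0.61, Chrna4 at -0.94 and Chrna7 at 0.085. With all samples, the 13 pan-neuronal genes had a median difference of 1.19 in this comparison, with 0 called by limma and 4 at an unadjusted p under 0.05. Their sums were 2080 to 4596 RPKM in oculomotor and 127.5 to 4132 in spinal samples, the lowest in spinal sample 4. Without that sample their median difference was 0.29, with 0 called by limma. The 7 pluripotency genes had a median difference of -1.49, with 0 called by limma and 3 at an unadjusted p under 0.05. Without spinal sample 4 it was -0.87. Their sums were 1.01 to 259 RPKM in oculomotor and 15.6 to 12400 in spinal samples, highest in spinal sample 5. The part of these shifts in the members' differences was not tested.

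Shares of the summed RPKM of the 6 nicotinic members give the same data within each sample, whatever its scaling. Chrna3, Chrna5 and Chrnb4 together made up 56.1% to 85.2% (median 70.4%) of this sum in oculomotor GFP+ samples and 17.1% to 36.9% (median 24.6%) in spinal GFP+ samples. The groups do not overlap, and the highest spinal share, in sample 4, falls to 28.2% when that sample is left out. Chrna4 made up 57.0% to 73.8% in spinal and 11.1% to 37.9% in oculomotor GFP+ samples. The highest subunit was Chrna4 in 6 of 6 spinal GFP+ samples, and in oculomotor GFP+ samples it was Chrna3 in 5 and Chrna4 in 1, sample 4. These shares are a description over members and carry no test. The summed level behind them was 26.4 to 103 RPKM in oculomotor and 7.03 to 67.3 in spinal GFP+ samples.

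**Figure D4:**
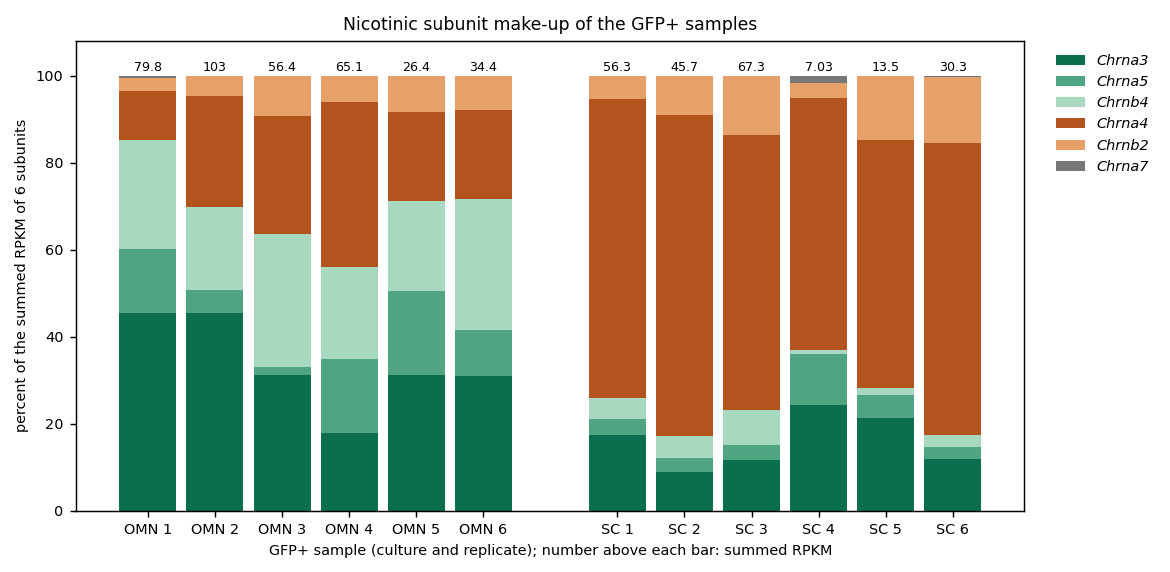
Share of each of the 6 nicotinic members in their summed RPKM (percent, stacked bars) in the 12 GFP+ samples, with the summed RPKM above each bar. The green part (Chrna3, Chrna5, Chrnb4) covers 56.1% to 85.2% of the oculomotor and 17.1% to 36.9% of the spinal bars.

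Between the GFP- fractions, 1 member was called, against 0.96% of all genes. Chrna3 was lower in oculomotor than in spinal GFP- samples, by -1.74 ± 0.38 on the log2(RPKM + 1) scale (adjusted p = 0.0249). The groups did not overlap, which held for 0.87% of all genes in that direction. The call was lost without oculomotor GFP- sample 2 (adjusted p = 0.0503) or 4 (0.0521) and without spinal GFP- sample 5 (0.0531), and without both spinal samples 4 it stood at -1.64 (adjusted p = 0.0193). Pan-neuronal genes summed to 118 to 914 RPKM in spinal and 38.6 to 113 in oculomotor GFP- samples with 0 of 13 called by limma and 10 at an unadjusted p under 0.05. Without spinal GFP+ sample 4 in the fit, 5 of the 13 were called as lower in oculomotor GFP- samples, and their part in the Chrna3 difference was not tested. The other 9 members had differences between -1.28 (Chrna4, adjusted p = 0.300) and -0.03 (Chrna7).

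**Figure D5:**
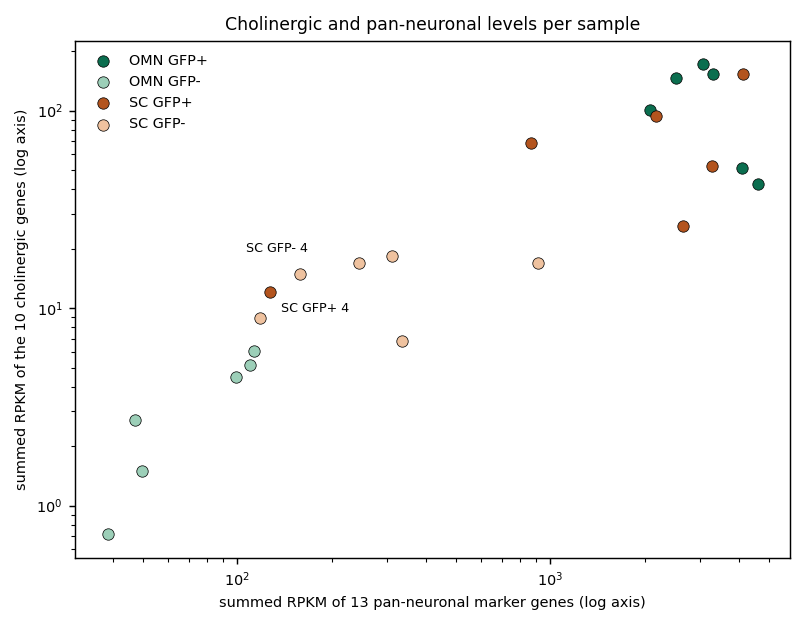
Summed RPKM of the 10 members (y, log axis) against that of the 13 pan-neuronal genes (x, log axis) in each of the 24 samples, coloured by group. The spinal GFP+ sample 4 (12.1 against 127.5 RPKM) lies among GFP- samples, and the other GFP+ samples lie at 26.1 to 172 RPKM of the members.

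Other genes of the cholinergic pathway were taken as lists. Of 9 other nicotinic subunit genes in the table, most of them muscle-type or sensory subunits, 0 were called by limma in any of the 5 comparisons, and 1 of 36 tests had an unadjusted p under 0.05. The muscle gene Chrnb1 had the highest mean of them over the 24 samples and ran from 0.154 to 1.07 RPKM in oculomotor and 0 to 4.55 in spinal GFP+ samples, the latter in sample 4. Chrng, another muscle-type gene named after its values were seen, read 0.0348 to 15.1 RPKM (median 0.735) in oculomotor GFP+ samples, with the highest value in sample 3. That range overlaps oculomotor GFP- samples (0 to 1.68, median 0.134). Spinal samples reached at most 0.139 in GFP+ and 0.283 in GFP- samples, and Chrng was not called. Of 4 muscarinic receptor genes, 0 were called by limma, 2 of 19 tests had an unadjusted p under 0.05, and the highest, Chrm3, averaged 0.128 RPKM. Among 9 genes for nicotinic receptor chaperones and Ly6-type modulators, Ric3, a chaperone of receptor assembly, rose in the oculomotor step by 1.24 (1.03 to 5.62 RPKM in GFP+ against 0.173 to 0.604 in GFP- samples, adjusted p = 0.0162). Ly6e had the highest mean of that list over the 24 samples, at 9.55 RPKM, and was not called. Tmem35a, named after its values were seen, had higher means than Ly6e in both spinal groups, at 13.9 against 9.67 RPKM in GFP+ and 12.4 against 6.87 in GFP- samples. The medians were 10.4 against 9.34 in spinal GFP+ samples, where Tmem35a ran from 0 to 38.0 with 2 samples at 0. In spinal GFP- samples they went the other way, at 4.63 against 5.88, and sample 5 read 57.7 for Tmem35a.

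Of 12 genes for choline handling and acetylcholine breakdown, the choline transporter-like genes Slc44a1 and Slc44a4 fell in the oculomotor step. Slc44a1 was at 0.204 to 2.46 RPKM in GFP+ and 1.81 to 8.74 in GFP- samples (log2 difference -1.46, adjusted p = 0.0277). Slc44a4 was at 0 in all 6 GFP+ samples and at 0.155 to 1.68 in GFP- samples (log2 difference -0.72, adjusted p = 0.0260). Slc44a3 was highest in spinal GFP- samples (0.698 to 5.52 RPKM, against at most 0.709 in spinal GFP+ and 0.552 in oculomotor GFP- samples), with log2 differences of -1.45 between spinal fractions (adjusted p = 0.0067) and -1.31 between GFP- fractions (adjusted p = 0.0187). Acly, which supplies cytosolic acetyl-CoA, had the highest mean of this list, at 87.1 RPKM. Without spinal GFP+ sample 4, Acly was also called as higher in both fraction steps, and Slc44a5 as higher in the spinal step and lower in oculomotor than in spinal GFP+ samples.

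Among regulators and motor neuron markers, Isl1 rose in the oculomotor step by 6.79 and its LIM homeodomain relatives Lhx4 and Isl2 by 4.04 and 1.48. Phox2a, Tbx20 and Nkx6-1, regulators of cranial and ventral neuron identity, rose by 1.97, 3.13 and 3.09. Rest, a repressor of neuronal genes, fell by 2.84, from 9.54 to 28.8 RPKM in GFP- to 0.421 to 4.60 in GFP+ samples. In the spinal step Isl1 (3.32), Isl2 (1.84), Lhx3 (2.96), Lhx4 (2.99) and Mnx1 (4.02) were called, all as higher. Between GFP+ fractions Phox2a (3.46) and Tbx20 (3.09) were higher in oculomotor and Mnx1 (-5.00) and Lhx3 (-4.50) lower. Without spinal GFP+ sample 4 the call of Phox2a was lost (3.31, adjusted p = 0.0608). The interaction was called for Isl1 (3.47) and Tbx20 (3.09). GFP reported Islet1 in oculomotor and Hb9 in spinal cultures, so the Isl1 and Mnx1 differences are partly set by the sort. They serve as checks of the labels only. The oculomotor line also carried extra Phox2a, and the part of the transgene in the Phox2a values was not tested.

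Markers of other transmitters differed by list. The 8 glutamatergic, GABAergic and glycinergic genes summed to 1.08 to 3.00 RPKM in oculomotor and 0.967 to 6.17 in spinal GFP+ samples, with all 8 above 0 in some sample and 0 called by limma in any comparison (3 of 40 tests at an unadjusted p under 0.05). The 9 monoamine genes summed to 14.1 to 52.0 RPKM in oculomotor and 8.85 to 42.4 in spinal GFP+ samples. The vesicular monoamine transporter gene Slc18a2, named after its values were seen, read 7.62 to 43.4 RPKM (median 18.8) in oculomotor GFP+ samples, where Chat had a median of 6.72. In each culture 7 of these 9 genes were above 0 in some GFP+ sample: Slc6a2 and Fev were at 0 in all oculomotor and Slc6a2 and Slc6a3 in all spinal GFP+ samples. Of this list, Dbh and Slc18a2 were called as higher in the oculomotor step, Th in the spinal step and Dbh in the interaction, where the call of Dbh was lost without spinal GFP+ sample 4 (adjusted p = 0.0680). Between GFP+ fractions, 0 of the 7 monoamine genes tested were called by limma, with 3 at an unadjusted p under 0.05. The 8 glial genes summed to 4.00 to 9.54 RPKM in oculomotor GFP+ samples, with Sox10 at 0, and to 3.29 to 10.8 in spinal GFP+ samples, with Gfap at 0. The 13 progenitor and cycling genes summed to 147 to 592 in oculomotor and 401 to 1551 RPKM in spinal GFP+ samples.

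Over the 24 samples, genes with the most similar pattern to each member were sought among 11950 genes with a mean of at least 1 RPKM, by Pearson correlation of log2(RPKM + 1). The correlations describe samples that share libraries and sorted fractions. The nearest to Chat were Ralgds (r = 0.951), Celf3 (0.945) and Srrm3 (0.937), and to Slc18a3 they were Tubb3 (0.953), Plxna3 (0.943) and Gdap1l1 (0.942). Slc5a7 stood nearest to Spock3 (0.922), Nts (0.905) and Hecw1 (0.859), but it reached 1 RPKM only in spinal GFP+ samples 5 and 6 and spinal GFP- sample 5. Ache stood nearest to Fgf18 (0.944), St18 (0.920) and Ebf1 (0.920). Chrnb4 also had Ebf1 (0.926) among its nearest, with Snx18 (0.930) and Mgll (0.923).

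Chrna3 was nearest to Hpca (0.923), Elavl4 (0.912) and Arl4d (0.909), and Chrna5 to Tmem41a (0.903), Acss2 (0.890) and Kcnk10 (0.877). Chrna4 was nearest to Brsk2 (0.953), Tspan5 (0.943) and Myt1 (0.928), and Chrnb2 to St6galnac5 (0.966), Kif5a (0.961) and Sez6l2 (0.950). Chrna7 had the weakest likeness, to Acy1 (0.763), Srm (0.754) and Tmem97 (0.752), at levels of at most 0.730 RPKM.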

How the data were processed

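Poly(A) RNA of 24 sorted samples had been amplified with Smart-seq2. The deposited RPKM values were made by the authors with HISAT2 2.0.3, mapping to mm10, and rpkmforgenes, after samples of low depth had been left out. DESeq2 1.12.4 is listed in the submitters' notes for their own comparisons. The gene annotation and strand setting are not given in the sources used here. Groups came from the labels. No source says that same-group samples are separate cultures, so p-values measure the spread between these samples, which may be technical.

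Values were taken as log2(RPKM + 1). Genes above 0 RPKM in at least 2 fitted samples were tested with limma 3.58.1 (R 4.3.3, intensity trend, 2-sided) and Benjamini-Hochberg adjustment at 0.05. The 12 GFP+ samples were fitted for the comparison of GFP+ fractions, and all 24 for the other 4. Low RPKM values are whole multiples of what 1 read is worth, which gave depth (752529 to 7675428 mapped reads) and reads per gene, with 95.8% to 97.8% of low values whole. For Chat and Slc5a7 the length that gave whole reads matched no annotated transcript or exon union, so their read numbers are less sure. Intervals and floors on reads (3 reads) cover counting error only. Promoters and starts are from RefSeq (GRCm38.p6) and coordinates from GENCODE. Scripts used Python 3.11.15, numpy 2.4.6, pandas 2.3.3, scipy 1.17.1 and matplotlib 3.10.9 and were tested on simulated data.

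The named genes were the 10 members, list genes called in any comparison or highest in their list, 3 nearest genes per member, and Isl1, Mnx1 and Phox2a as label checks; other lists were summarised. A gene of the regulator list is not reported here. Members and lists were chosen with earlier results of these data known. Alternatives were another pseudocount, other filters and scalings, sample weights, depth sets, other samples in the fit, a replicate block and leaving out each sample. Deviations from the group mean correlated between GFP+ and GFP- samples of the same number at 0.379 to 0.728 in oculomotor and 0.421 to 0.661 in spinal cultures (6 pairs each), so fractions were treated as paired in the block.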

Additional observations from a re-analysis of the deposited data

Results flagged for a closer look

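In 5 of 39 sets of 6 samples, 1 sample lay far from the others by Dixon's criterion. Chance meets it in about 1 of 20 sets only for normally distributed values. Sets with values at 0 are not of that kind, and 5 samples at 0 with 1 above are always flagged. The count therefore cannot be set against chance here. Slc18a3 read 1.43 RPKM in oculomotor GFP- sample 1, with the nearest sample at 0.307. Slc5a7 read 1.07 RPKM in spinal GFP- sample 5, with the other 5 at 0. Ache read 11.3 RPKM in oculomotor GFP+ sample 4, with the nearest at 3.39, and 0.0745 RPKM (1 read) in oculomotor GFP- sample 1, with the other 5 at 0. Chrna7 read 0.43 RPKM in oculomotor GFP+ sample 1, with the nearest at 0.0868.

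The GFP+ against GFP- difference itself differed between cultures for Chrna3, by 3.56 on the log2 scale, and for Chrnb4, by 3.00, in limma's interaction test (adjusted p = 0.0014 and 0.0150).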

How the results depend on the processing

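The count of 8 members higher in oculomotor GFP+ than GFP- samples stayed between 7 and 8 under every alternative; over the 5 counts, 132 of 167 alternatives stayed within 1.5 times. Between GFP+ fractions (1 member), no filter gave 0 (3 at an unadjusted p under 0.05), median centring 2, the 24-sample fit 3, replicates 1 to 4 gave 0 (2 unadjusted), replicates 5 and 6 gave 0 (5 unadjusted), and leaving out 1 sample 0 to 1. Between spinal fractions (1 member), the replicate block gave 3, median centring 1 (Slc18a3 in place of Chrnb2), a pseudocount of 0.1 gave 0 (6 unadjusted), a mean of at least 1 RPKM 2, depth set as covariate 2, the 12-sample fit 0 (6 unadjusted), replicates 1 to 4 gave 0 (7 unadjusted), replicates 5 and 6 gave 0 (5 unadjusted), leaving out both spinal samples 4, chosen after seeing the data, 3, and leaving out 1 sample 0 to 4. Between GFP- fractions (1 member), replicates 1 to 4 and replicates 5 and 6 gave 0 (1 and 3 unadjusted), and leaving out 1 sample 0 to 1. For the interaction (2 members), a pseudocount of 0.1 gave 1, and replicates 1 to 4 and replicates 5 and 6 gave 0 (4 unadjusted in each). The sets of replicates hold fewer samples by construction; for the others the cause was not tested. The replicate block changed no other call of a member. Between cultures the numbers do not pair samples (correlations of -0.175 to 0.707 in GFP+ and -0.039 to 0.612 in GFP- samples), and the block there kept 1 member.

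No called difference changed sign. Of differences that were not called, those of Slc5a7 became 0.15 between GFP+ fractions, 0.055 between GFP- fractions and 0.10 in the interaction with replicates 1 to 4, and ran from -0.17 to 0.044 between GFP- fractions when 1 sample was left out. Between GFP+ fractions Chrnb2 became -0.23 with sample weights and without both spinal samples 4, -0.27 in replicates 5 and 6, and ran from -0.23 to 0.38 without 1 sample, and Chrna7 ran from -0.0062 to 0.10. Chrnb4 became -0.022 between spinal fractions in replicates 5 and 6. Between GFP- fractions Chrna5 became 0.030 with median centring and 0.16 in replicates 1 to 4 (-0.19 to 0.071 without 1 sample), and Chrna7 became 0.12 with a pseudocount of 0.1, 0.086 with median centring, 0.24 in replicates 5 and 6 and 0.047 without both spinal samples 4 (-0.093 to 0.065 without 1 sample). In the interaction Chrna7 became -0.23 in replicates 5 and 6.

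Over all genes, in the order GFP+ fractions, oculomotor step, spinal step, GFP- fractions and interaction, 116, 1364, 272, 213 and 71 were called, and 73, 3644, 649, 563 and 453 with the replicate block, 260, 3795, 484, 650 and 240 with sample weights, 30, 476, 1, 39 and 10 in replicates 1 to 4, and 119, 1826, 633, 584 and 228 without both spinal samples 4. Depth set as covariate gave 191, 2116, 441, 367 and 123, replicates 5 and 6 gave 13, 884, 300, 299 and 84, and fits of other samples 342, 2388, 4 and 76 in the first 4. Between GFP+ fractions a pseudocount of 0.1 gave 229, and a mean of at least 1 RPKM and median centring 193 each. The calls as higher among all calls were 845 of 1364, 91 of 213 and 58 of 71 in the oculomotor step, GFP- fractions and interaction, against 702 of 1571, 128 of 200 and 57 of 87 with median centring, and 997 of 1318 and 54 of 298 in the first 2 when rescaled without mitochondrial genes and 3 gene models. Median centring moved the median of all genes by -0.13 in the oculomotor and -0.11 in the spinal step. At this depth the low levels of Chrna7 and Slc5a7 rest on few reads in most samples.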
